A study of Saccharomyces cerevisiae with 5 samples.

Results

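Chromosome XII of Saccharomyces cerevisiae carries the ribosomal DNA array, and in these tables it falls into a left and a right stretch around an unlisted gap. The stretches described here are all listed positions of chromosome XII more than 30 kb from either end, which are 1908 of 23837 listed positions of the genome (839 left and 1069 right of the gap). They hold 32 of the 414 initiation sites found in the genome, 14 on the left and 18 on the right. The last position listed in all samples left of the gap is 449449 and the first on the right is 513478, so the gap spans 64.0 kb, while the longest other unlisted stretch in the genome is 510 bp. The left stretch is 419 kb long and the right stretch 535 kb. The genome build is not given in the sources used here, so coordinates are those of the deposited tables, and sites are named by position and not by gene. The RefSeq annotation of build R64, used only for the order of genes, lists ribosomal RNA genes between RNH203 (a subunit of ribonuclease H2) and MAS1 (a subunit of the mitochondrial processing protease). Which genes lie inside the gap was not determined.

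Replication starts at origins, from which a pair of forks moves apart, and ends where converging forks meet. The lagging strand of each fork is made as Okazaki fragments, so the strand that yields them tells which way forks pass. Every repeat of the ribosomal DNA array has a potential origin and a replication fork barrier, at which the protein Fob1 stops forks that move against transcription of the large ribosomal RNA precursor. Factors that act in the firing of origins include Cdc45, a part of the replicative helicase, and Sld3 and Sld7, which help to load it. Others are Sld2 and Dpb11, which complete helicase assembly, and Dbf4, the activator of the Cdc7 kinase.

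The 5 samples came from asynchronous cultures grown at 30 degrees. Strain yIW160-SSDDCS, which overexpresses these 6 factors in galactose, gave 2 samples in galactose (E and G) and 1 in glucose (F), by Ion Torrent single-end sequencing. Strain yIW160 was the wild type, with 2 samples (A and B) by Illumina paired-end sequencing. The labels give all 5 samples the same growth note, with growth in 2% glucose, 4 hours in fresh medium with 2% glucose or galactose, and then 2.5 hours with doxycycline (40 micrograms per ml). Which of these media the wild-type samples were moved to is not labelled. Galactose medium cannot be told apart from overexpression, nor strain from sequencing platform. The labels do not say whether replicates are separate cultures, so p-values reflect only how these samples vary. The deposited tables hold no read counts, so depth is unknown.

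A site was a place from which the authors' fitted forks set out in both directions, at a probability of 0.1 or more, and sites were matched across samples up to 2500 bp apart. The probability is the fitted share of genome copies in which forks start there. Summed over the left stretch it was 9.34 in galactose E and 10.2 in galactose G, against 6.28 in glucose F, 4.92 in wild type A and 5.55 in B. On the right it was 9.85 and 12.1 in galactose E and G, against 6.93 in glucose F, 5.86 in wild type A and 7.57 in B. Both galactose samples lay above the other 3 on each side, by a ratio of galactose to glucose of 1.56 on the left and 1.58 on the right, and of galactose to wild type of 1.87 and 1.63. In exact two-sided permutation tests of galactose against all other samples, p was 0.1 on each side, the smallest this design allows, and 0.333 after Benjamini-Hochberg adjustment over 20 values. Among the 16 chromosomes, chromosome XII ranked 3 by the ratio of galactose to glucose (1.57) and 1 by the ratio of galactose to wild type (1.74).

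**Figure D1:**
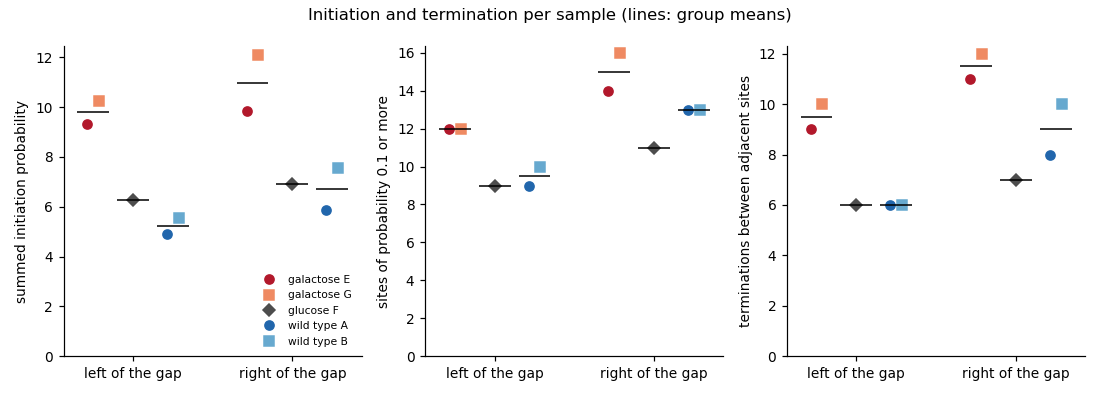
Summed initiation probability, number of sites and number of terminations between adjacent sites per sample left and right of the gap, with lines at the group means. Galactose E and G lie above glucose F and wild type A and B in each panel and on each side, with summed probabilities of 9.34 to 12.1 in galactose, against 4.92 to 7.57 in glucose and wild type.

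Per 100 kb, the left stretch had 2.23 and 2.44 initiations in galactose E and G, against 1.50 in glucose F, 1.17 in wild type A and 1.32 in B. The right stretch had 1.84 and 2.26 initiations per 100 kb in galactose E and G, against 1.30 in glucose F, 1.10 in wild type A and 1.42 in B. Relative to the other 15 chromosomes of the same sample, the left density was 1.05 in galactose E and 1.05 in galactose G, against 0.935 in glucose F, 0.815 in wild type A and 0.828 in B. So the left stretch was slightly denser than the rest of the genome in galactose and sparser in glucose and wild type (exact permutation p = 0.1, adjusted 0.333). Right of the gap this ratio was 0.867 and 0.977 in galactose E and G, against 0.810 in glucose F, 0.761 in wild type A and 0.886 in B, and the groups overlapped (exact permutation p = 0.3).

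Of the 14 left sites, 7 were found in all 5 samples, 3 only in both galactose samples, and 1 in all samples but those in galactose. Of the 18 right sites, 11 were found in all 5 samples, 1 only in both galactose samples and 4 in a single sample. On the left, 12 sites were found in each galactose sample, against 9 in glucose F, 9 in wild type A and 10 in B. On the right there were 14 and 16 in galactose E and G, against 11 in glucose F and 13 in each wild-type sample. Sites of probability 0.9 or more numbered 4 and 6 on the left in galactose E and G, against 1 in glucose F and 0 in each wild-type sample. On the right, galactose E had 1 such site and galactose G had 9, against 1 in glucose F, 0 in wild type A and 1 in B, so the galactose replicates differed there.

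**Figure D2:**
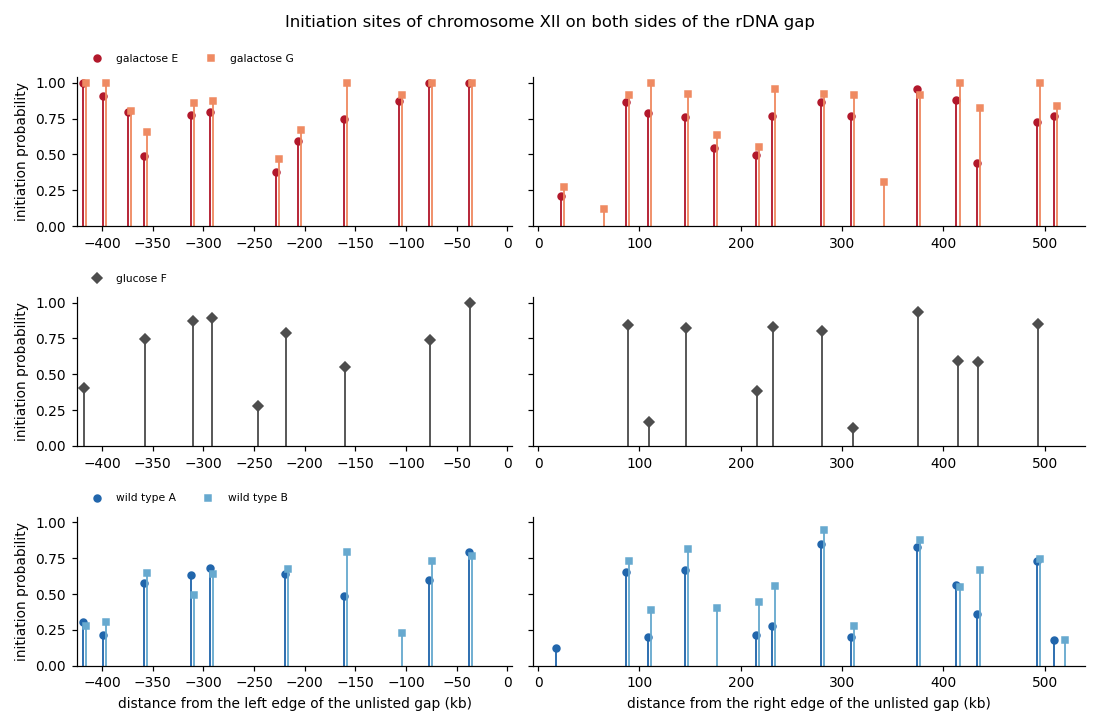
Initiation probability of each site against its distance in kb from the edge of the unlisted gap, left stretch in the left panels and right stretch in the right panels, with galactose E and G at the top, glucose F in the middle and wild type A and B at the bottom. The site 36.6 kb left of the gap is present in all 5 samples, and the site 23.8 kb right of it only in galactose.

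The sites were compared over the whole genome with limma, with Benjamini-Hochberg adjustment over all 414 sites at 0.05. Between galactose and glucose, 6 of 14 left sites were higher in galactose and 2 were lower, and 3 of 18 right sites were higher and 0 were lower. Over the genome 24.6% of sites were called higher and 5.8% lower, while of the 32 sites of chromosome XII 28.1% were higher and 6.25% lower. Between galactose and wild type, 8 left sites were higher and 1 was lower, and 6 right sites were higher and 0 lower, beside 34.8% higher and 4.83% lower over the genome. Both contrasts share the galactose samples. Between glucose and wild type, 1 left site was higher and 0 right sites were called, beside 2.9% higher and 1.69% lower over the genome, and at an unadjusted limma p under 0.05 there were 7 left and 0 right sites, beside 23.9% over the genome and 21.9% of the 32 sites. Both galactose values lay above the other 3 samples at 15 of the 32 sites and below them at 1, beside 50.2% above and 2.9% below over the genome.

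The calls rested on few samples. In the contrast with glucose, leaving out wild type A or wild type B gives the same fit, because 1 remaining wild-type sample adds no spread. These are thus 1 check there, not separate ones. Against glucose, 6 of the 8 left calls remained without either galactose sample and 5 without either wild-type sample. Of the 3 right calls, 1 remained without either galactose sample and 0 without either wild-type sample. Against wild type, 5 of the 9 left and 2 of the 6 right calls remained without either galactose sample; without wild type A 6 left calls and 1 right call remained, and without wild type B 6 and 0. The left sites at 31789, 76740 and 231184 kept their calls in both contrasts whichever galactose or wild-type sample was left out. Each had 1 group of equal values, with 1 in both galactose samples at 31789 and 0 in both at 231184. At 76740 both wild-type samples had 0. Leaving out a sample of such a pair cannot change that group's mean, so it does not show that the call is stable. The call at 202950 against glucose remained whichever of these samples was left out. That site had 0 in both galactose and both wild-type samples, so leaving one out could not change its spread and does not show that the call is stable.

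At the far left, 3 sites in a row were higher in galactose. The site at 31789, 418 kb from the gap, had a probability of 1 in each galactose sample, against 0.405 in glucose F, 0.303 in wild type A and 0.276 in B (limma difference from glucose 0.595 ± 0.0240 SE, adjusted p = 0.00469; from wild type 0.710 ± 0.0196, adjusted p = 0.00281). The site at 51893 stood at 0.905 in galactose E and 1 in galactose G, against 0 in glucose F, 0.211 in wild type A and 0.304 in B (limma difference from glucose 0.952 ± 0.0716 SE, adjusted p = 0.0102; from wild type 0.695 ± 0.0584, adjusted p = 0.0139). Its calls were lost in each of the 4 fits that left out a sample, with a highest limma adjusted p of 0.0754 against glucose and 0.109 against wild type. The site at 76740 was found only in galactose, with 0.798 in E and 0.805 in G, against 0 in the other 3 samples (limma difference from glucose 0.801 ± 0.0197 SE, adjusted p = 0.00301; from wild type adjusted p = 0.00220). The next site to the right, at 91834 and 15.1 kb from it, was not called, with 0.492 and 0.654 in galactose E and G, against 0.748 in glucose F, 0.574 in wild type A and 0.646 in B. These sites lie just inside the 30 kb margin, and 1 further site of the chromosome lies closer to an end.

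Between 200 and 250 kb left of the gap, the pattern of sites itself differed. At 231184 there was no site in either galactose sample, against 0.788 in glucose F, 0.642 in wild type A and 0.672 in B (limma difference from glucose -0.788 ± 0.0250 SE, adjusted p = 0.00347; from wild type -0.657 ± 0.0204, adjusted p = 0.00322). On its left, 8.96 kb away, the site at 222220 had 0.375 in galactose E and 0.468 in galactose G, against 0 in the other 3 samples (limma difference from glucose 0.421 ± 0.0521 SE, adjusted p = 0.0260; from wild type adjusted p = 0.0173). On its right, 13.4 kb away, the site at 244598 had 0.592 in galactose E and 0.667 in galactose G, against 0 in the other 3 samples (limma difference from glucose 0.630 ± 0.0436 SE, adjusted p = 0.00926; from wild type adjusted p = 0.00800). So a single site in glucose and wild type stood where galactose had a pair of sites on either side of it, and no position had a site in both. The calls at 222220 and 244598 were lost in both contrasts without either wild-type sample, with a highest adjusted p of 0.147 and 0.0918 against glucose. The site at 202950 had 0 in each galactose sample, against 0.280 in glucose F and 0 in each wild-type sample. It was called lower in galactose than in glucose (limma adjusted p = 0.00926) and higher in glucose than in wild type (adjusted p = 0.0371). Both calls rest on 1 glucose sample, whose spread was taken from the other groups.

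Of the 3 sites nearest the gap on the left, the outermost was mostly a galactose site. The site at 343719, 106 kb from the gap, had 0.871 in galactose E and 0.917 in galactose G, against 0 in glucose F, 0 in wild type A and 0.227 in B (limma difference from glucose 0.894 ± 0.121 SE, adjusted p = 0.0286; from wild type 0.780 ± 0.0990, adjusted p = 0.0212). Both calls remained without either wild-type sample and were lost without either galactose sample, with a highest limma adjusted p of 0.199 against glucose and 0.191 against wild type. The site at 373514, 75.9 kb from the gap, had 0.995 and 1 in galactose E and G, against 0.741 in glucose F, 0.598 in wild type A and 0.730 in B, and was called only against wild type (difference 0.334 ± 0.0579 SE, limma adjusted p = 0.0365; adjusted p = 0.100 against glucose). The site nearest the gap, at 412885 and 36.6 kb from it, had 0.996 and 0.995 in galactose E and G, against 1 in glucose F, 0.795 in wild type A and 0.767 in B. It was higher in galactose than in wild type (difference 0.215 ± 0.0197 SE, limma adjusted p = 0.0154) and was not called between galactose and glucose. Its glucose value lay on the side of the galactose values, with a limma adjusted p of 0.0629 between glucose and wild type. The calls at 373514 and 412885 were lost without either galactose sample, with a highest limma adjusted p of 0.246 and 0.0996, and remained without either wild-type sample.

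The strongest wild-type sites of the left stretch were those at 412885, 373514 and 157560. The site at 157560 had 0.797 and 0.870 in galactose E and G, against 0.896 in glucose F, 0.682 in wild type A and 0.637 in B, and was not called (limma adjusted p = 0.511 against glucose and 0.0589 against wild type). The 2 remaining left sites, at 139071 and 289341, were found in all 5 samples at 0.485 to 1 and were not called either.

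To the right of the gap the nearest sites were weak. The site at 532703 was found only in wild type A, at 0.125, and the site at 576847 only in galactose G, at 0.122. Between them, 23.8 kb from the gap, the site at 537288 had 0.207 in galactose E and 0.271 in galactose G, against 0 in the other 3 samples (limma difference from glucose 0.239 ± 0.0382 SE, adjusted p = 0.0355; from wild type adjusted p = 0.0224). This call was lost without either wild-type sample (highest adjusted p 0.176 against glucose). The first site of at least 0.3 lay 87.5 to 89.4 kb right of the gap in all 5 samples, while on the left it lay 36.4 to 36.7 kb from it. That right-hand site, at 602097, had 0.865 and 0.912 in galactose E and G, against 0.842 in glucose F, 0.657 in wild type A and 0.731 in B. It was called only against wild type (difference 0.195 ± 0.0404 SE, limma adjusted p = 0.0499), and in 0 of the 4 fits that left out a sample.

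Further right, 4 sites were called higher in galactose, 2 of them in both contrasts. The site at 823889 had 0.771 and 0.917 in galactose E and G, against 0.126 in glucose F, 0.202 in wild type A and 0.279 in B (limma difference from glucose 0.719 ± 0.0877 SE, adjusted p = 0.0259, and from wild type 0.604 ± 0.0716, adjusted p = 0.0191). It joins places at 822472 and 822342 in galactose E and G with 824822 in glucose F, 824695 in wild type A and 825116 in B. These calls thus compare joined places and not a rise at 1 shared position. The site at 1024402 had 0.769 and 0.836 in galactose E and G, against 0 in glucose F, 0.180 in wild type A and 0 in B (limma difference from glucose 0.802 ± 0.101 SE, adjusted p = 0.0260; from wild type 0.712 ± 0.0824, adjusted p = 0.0188). At 623200 the values were 0.790 and 1 in galactose E and G, against 0.165 in glucose F, 0.198 in wild type A and 0.387 in B, called against wild type (limma adjusted p = 0.0474) and not against glucose (0.0590). At 927964 they were 0.877 and 1 in galactose E and G, against 0.595 in glucose F, 0.565 in wild type A and 0.553 in B, again called only against wild type (limma adjusted p = 0.0262, against glucose 0.0544). The calls at 823889 in both contrasts, at 623200 against wild type (highest limma adjusted p 0.234) and at 1024402 against glucose were lost whichever galactose or wild-type sample was left out. Against wild type, the call at 1024402 remained only without wild type A, and the call at 927964 was lost without either wild-type sample (highest limma adjusted p 0.189).

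The strongest wild-type sites of the right stretch lay at 0.667 or above in all 5 samples. The site at 794013 had 0.866 and 0.924 in galactose E and G, against 0.800 in glucose F, 0.851 in wild type A and 0.947 in B. At 888678 it was 0.957 and 0.912 in galactose E and G, against 0.932 in glucose F, 0.829 in wild type A and 0.876 in B. At 659856 it was 0.765 and 0.923 in galactose E and G, against 0.825 in glucose F, 0.667 in wild type A and 0.811 in B. None of these 3 was called in any contrast (lowest limma adjusted p 0.159). Of the other right sites, 5 were found in at least 3 samples at 0.213 to 1 and were not called, and 2 were found in a single sample.

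Next to the gap, only forks that move away from it were listed. Within 10 kb of the left edge, forks moving away had a probability of 0.504 and 0.945 in galactose E and G, against 0.565 in glucose F, 0.116 in wild type A and 0.530 in B. At the right edge it was 0.830 and 0.959 in galactose E and G, against 0.838 in glucose F, 0.716 in wild type A and 0.884 in B. Forks moving toward the gap were listed at 0 there on both sides in all 5 samples. The listed probability of both directions therefore summed to less than 1 at the edges. Beyond 50 kb its median per sample was 0.969 to 1 on the left and 0.984 to 1 on the right. Still, 11 of 106 right windows of 5 kb had under 0.9 listed in at least 1 sample, reaching up to 232 kb from the gap. Whether the unlisted remainder stands for forks that enter the array cannot be told from these tables. The groups overlapped on each side (exact permutation p = 0.5 each), and the 2 galactose samples differed more from each other on the left than galactose did from glucose. In every sample the probability was higher at the right than at the left edge, by 0.326 and 0.0147 in galactose E and G, against 0.273 in glucose F, 0.600 in wild type A and 0.354 in B (exact permutation p = 0.4 between groups).

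**Figure D3:**
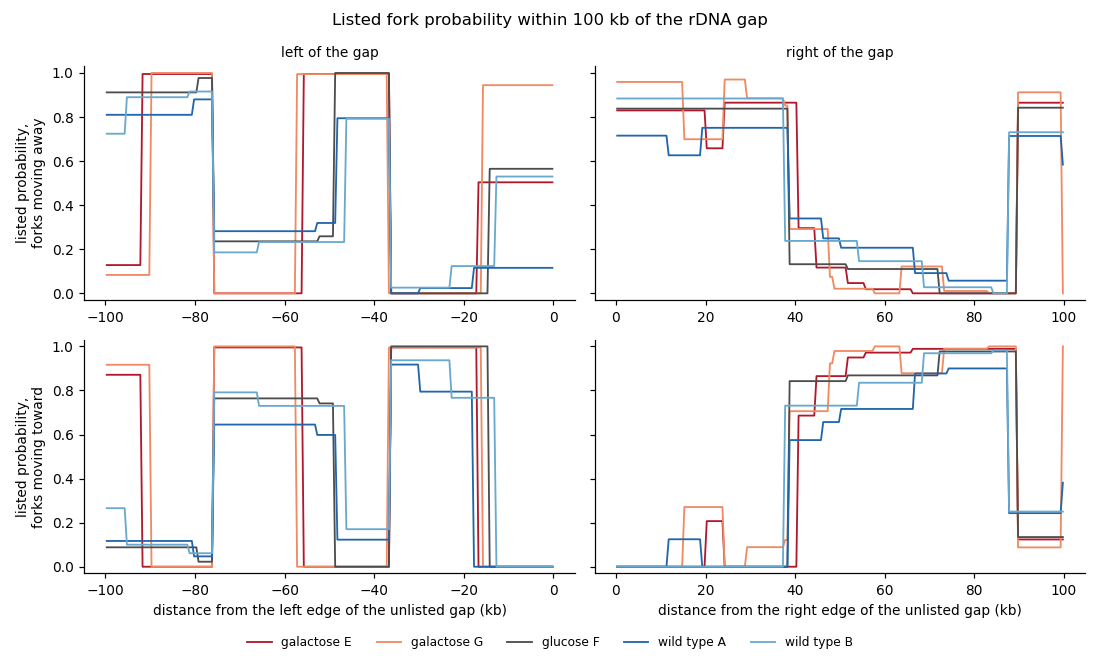
Listed probability of forks moving away from the gap (top) and toward it (bottom) within 100 kb of the gap on the left and on the right, against distance from the gap edge in kb, 1 line per sample. Forks toward the gap are at 0 next to it in all 5 samples, and forks away from it range from 0.116 in wild type A to 0.945 in galactose G at the left edge.

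On the left, forks from the site at 412885 moved toward the gap. In 4 of the 5 samples a termination was listed between that site and the edge, counting only places of probability 0.1 or more. Between 20 and 30 kb from the gap, forks toward it had a probability of 0.996 and 0.995 in galactose E and G, against 1 in glucose F, 0.795 in wild type A and 0.886 in B. The nearest place where listed forks of both directions ended together was 17.0 and 16.0 kb from the gap in galactose E and G, against 14.5 kb in glucose F, 48.3 in wild type A and 12.9 kb in B. In wild type A this place lay beyond the site at 412885. Its forks toward the gap still fell from 0.795 between 20 and 30 kb to 0.159 between 10 and 20 kb. Its forks away from the gap fell from 0.116 within 10 kb to 0.0237 between 20 and 30 kb. So forks of both directions ended there in wild type A too, but no place reached 0.1. On the right, the nearest termination lay 19.9 and 15.0 kb from the gap in galactose E and G, against 38.5 kb in glucose F, 38.3 in wild type A and 37.4 kb in B. In galactose this nearest termination had a probability of only 0.172 and 0.260 in E and G, against 0.706 in glucose F, 0.411 in wild type A and 0.646 in B, and lay between the gap and the weak site at 537288. The main change of direction was at a like distance in all 5 samples: between 40 and 50 kb from the gap, forks toward it had 0.750 and 0.769 in galactose E and G, against 0.842 in glucose F, 0.608 in wild type A and 0.731 in B. Forks leaving the gap still had 0.226 and 0.229 there in galactose E and G, against 0.132 in glucose F, 0.304 in wild type A and 0.238 in B, and the groups overlapped.

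Over the 50 kb next to the gap, the share of copies not passed by a fork moving away, taken as the share moving toward the array, was 0.560 and 0.439 on the left in galactose E and G, against 0.581 in glucose F, 0.752 in wild type A and 0.656 in B. On the right it was 0.293 and 0.267 in galactose E and G, against 0.324 in glucose F, 0.378 in wild type A and 0.277 in B. By this measure the galactose samples were the lowest on the left (exact permutation p = 0.2, adjusted 0.364) and overlapped wild type on the right (p = 0.3). It counts the unlisted remainder, which was 0.884 in wild type A at the left edge, as moving toward the array. By listed probability alone, the left share toward the array was 0.390 and 0.420 in galactose E and G, against 0.455 in glucose F, 0.415 in wild type A and 0.523 in B, so the groups overlapped and the difference of galactose from the other 3 was -0.0593 in place of -0.164. By the first measure, which counts the unlisted remainder, the share was higher on the left than on the right in all 5 samples, by 0.172 to 0.378. By listed probability alone, the right share was 0.172 and 0.243 in galactose E and G, against 0.199 in glucose F, 0.177 in wild type A and 0.189 in B. It was thus also below the left share in each sample.

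Fork direction along the stretches was the share of listed probability in rightward forks, averaged in 5 kb windows; rightward forks move toward the array on the left and away from it on the right. Replicates followed each other closely. Over the 84 left windows Pearson's r was 0.956 for the galactose replicates, 0.925 for the wild-type replicates, and 0.549 to 0.596 between a galactose sample and the other 3. Over the 106 right windows r was 0.938 for the galactose replicates, 0.926 for the wild-type replicates, and 0.818 to 0.880 between a galactose sample and the other 3. These values describe windows that share forks with their neighbours, and carry no test. The fork pattern of the left stretch thus differed more between galactose and the rest than that of the right, while glucose F and the wild-type samples had r of 0.837 and 0.878 on the left and 0.920 and 0.928 on the right.

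In limma fits over all 2386 windows of the genome, 10 of 84 left windows had a higher rightward share in galactose than in glucose and 4 a lower share, beside 5.91% higher and 6.16% lower over the genome. Right of the gap 0 of 106 windows were higher and 3 lower. Against wild type, 15 left windows were higher and 12 lower, and 3 right windows were higher and 9 lower, beside 9.85% and 9.56% over the genome. Between glucose and wild type 0 windows were called on chromosome XII and 0.0% over the genome by limma, with 25 left and 13 right windows at an unadjusted p under 0.05, beside 18.1% over the genome and 20% of the 190 windows of chromosome XII. All calls depended on having both galactose samples: without E or without G, 0 windows of chromosome XII passed in any contrast.

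Sites and fork direction come from the same fitted forks, so a window called beside a called site is not separate support for it. The first 3 called runs on the left lay at or just right of the sites at 31789, 51893 and 76740. From 30001 to 45000, at the site at 31789, the rightward share was 0.749 and 0.767 in galactose E and G, against 0.294 in glucose F, 0.250 in wild type A and 0.195 in B (3 windows, highest limma adjusted p 0.0392 against glucose and 0.0232 against wild type). From 55001 to 60000 it was 0.922 and 1 in galactose E and G, against 0.102 in glucose F, 0.455 in wild type A and 0.376 in B (limma adjusted p = 0.0245 and 0.0232). From 75001 to 85000 it was 0.679 and 0.699 in galactose E and G, against 0.00256 in glucose F, 0.148 in wild type A and 0.0967 in B (2 windows, highest limma adjusted p 0.0260 and 0.0207). In these 3 places galactose forks moved mostly toward the array where glucose and wild-type forks moved mostly away from it. From 90001 to 115000, where the site at 91834 was not called, the share was 0.822 and 0.830 in galactose E and G, against 0.719 in glucose F, 0.484 in wild type A and 0.538 in B; all 5 windows passed against wild type and 1 of them, from 105001 to 110000, against glucose, with 0.901 and 0.894 in galactose E and G, against 0.749 in glucose F, 0.555 in wild type A and 0.551 in B.

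Around the site at 231184 the direction turned within short distances. From 215001 to 220000 the rightward share was 0.0525 and 0.0616 in galactose E and G, against 0.199 in glucose F, 0.287 in wild type A and 0.271 in B (limma adjusted p = 0.0473 against glucose). From 225001 to 230000, between the galactose site at 222220 and the site missing in galactose, it was 0.432 and 0.468 in galactose E and G, against 0.199 in glucose F, 0.283 in wild type A and 0.271 in B (adjusted p = 0.0372). From 230001 to 240000, right of the missing site, it was 0.184 and 0.203 in galactose E and G, against 0.880 in glucose F, 0.769 in wild type A and 0.847 in B (highest adjusted p 0.0245). Against wild type the last run extended to 245000. A run called only against wild type, from 190001 to 200000, had 0.321 and 0.314 in galactose E and G, against 0.165 in glucose F, 0.699 in wild type A and 0.663 in B (highest adjusted p 0.0245), so there glucose and wild type lay on opposite sides of galactose.

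Within 150 kb of the gap on the left, galactose forks changed direction more completely. From 345001 to 355000, right of the site at 343719, the rightward share was 0.872 and 0.917 in galactose E and G, against 0.0881 in glucose F, 0.129 in wild type A and 0.252 in B (2 windows, highest limma adjusted p 0.0353 against glucose). From 395001 to 400000, 51.9 kb from the gap and between the sites at 373514 and 412885, which were not called against glucose, it was 0 in each galactose sample, against 0.750 in glucose F, 0.665 in wild type A and 0.758 in B (adjusted p = 0.0245), so forks there moved away from the array in galactose and mostly toward it in the other 3 samples. Both runs were called against wild type too. The remaining left runs passed only against wild type. From 310001 to 315000, between the sites at 289341 and 343719, the share was 0.0961 and 0.175 in galactose E and G, against 0.230 in glucose F, 0.675 in wild type A and 0.652 in B. From 325001 to 335000 it was 0 and 0.00833 in galactose E and G, against 0.166 in glucose F, 0.245 in wild type A and 0.191 in B. It was 0 in each galactose sample from 360001 to 365000, against 0.0881 in glucose F, 0.126 in wild type A and 0.101 in B. Conversely it was 1 in each galactose sample from 385001 to 390000, against 0.764 in glucose F, 0.696 in wild type A and 0.758 in B. From 405001 to 410000 it was 0 in galactose E, galactose G and glucose F, against 0.134 and 0.177 in wild type A and B. In the last 3 of these windows all listed forks in galactose thus shared a single direction, while wild type was mixed.

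On the right, the first run called against glucose lay just left of the site at 823889, and the second held the site at 1024402. From 810001 to 820000 the rightward share was 0.249 and 0.119 in galactose E and G, against 0.933 in glucose F, 0.765 in wild type A and 0.716 in B (2 windows, highest limma adjusted p 0.0372). From 1020001 to 1025000 it was 0.308 and 0.248 in galactose E and G, against 1 in glucose F, 0.714 in wild type A and 0.768 in B (adjusted p = 0.0214). Forks moving toward the array thus made up most copies in galactose and the minority in glucose and wild type. Both runs were called against wild type as well.

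The other 7 right runs passed only against wild type. Near the gap, from 535001 to 540000, the share was 0.880 and 0.860 in galactose E and G, against 1 in glucose F and in each wild-type sample; at least 1 sample had a listed total as low as 0.751 in this window. From 560001 to 570000 it was 0.0800 and 0.0534 in galactose E and G, against 0.124 in glucose F, 0.242 in wild type A and 0.221 in B. At the site at 602097 it was 0.350 and 0.365 in galactose E and G from 600001 to 605000, against 0.345 in glucose F, 0.609 in wild type A and 0.596 in B. In the next window, from 605001 to 610000, it was 0.875 and 0.912 in galactose E and G, against 0.862 in glucose F, 0.746 in wild type A and 0.745 in B. In both windows glucose lay with galactose and apart from wild type. The place of the site within the first window differed in the same way. It was at 602863 and 602872 in galactose E and G and 602794 in glucose F, against 600972 and 600982 in wild type A and B. From 695001 to 700000, near the site at 688298, which was not called, it was 0.730 and 0.789 in galactose E and G, against 0.620 in glucose F, 0.483 in wild type A and 0.404 in B. From 910001 to 920000 it was 0.0897 and 0 in galactose E and G, against 0.237 in glucose F, 0.371 in wild type A and 0.347 in B. From 1030001 to 1035000 all copies were passed rightward in galactose E, galactose G and glucose F, with a share of 1, against 0.877 and 0.860 in wild type A and B.

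Terminations, taken as places where the rightward share fell through 50%, were more numerous in galactose. A sample with more sites has more intervals in which a termination can be counted. The count thus largely restates the number of sites and is no separate support. Counted between neighbouring sites that reached 0.3 in a sample, terminations on the left numbered 9 and 10 in galactose E and G, against 6 in glucose F and 6 in each wild-type sample (exact permutation p = 0.1, the smallest possible; adjusted 0.333). On the right they numbered 11 and 12 in galactose E and G, against 7 in glucose F, 8 in wild type A and 10 in B (exact permutation p = 0.2). Places where listed forks of both directions ended together, at 0.1 or more, were counted too. On the left there were 17 in each galactose sample, against 12 in glucose F, 13 in wild type A and 15 in B. On the right there were 24 and 22 in galactose E and G, against 19 in glucose F, 19 in wild type A and 25 in B. The groups thus overlapped on the right by this count. Of the 16 intervals between neighbouring sites found in all 5 samples, 8 had exactly 1 place in every sample where the rightward share fell through 50%. The permutation tests of these 8 positions gave an adjusted p of 0.3 each, so none passed.

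The positions are given as percent of the interval from its left site. In the last left interval before the gap, from 373514 to 412885, forks met at 50.8% and 47.0% in galactose E and G, against 68.3% in glucose F, 69.6% in wild type A and 74.8% in B. Termination thus lay near the middle in galactose and nearer the gap in the other 3 samples, with no overlap (galactose minus the other 3, -8.68 kb; exact permutation p = 0.1). From 91834 to 139071 it was at 58.3% and 54.2% in galactose E and G, against 56.3% in glucose F, 37.1% in wild type A and 34.3% in B, with glucose between the galactose samples. From 139071 to 157560 it was at 56.4% and 48.3% in galactose E and G, against 40.1% in glucose F, 48.3% in wild type A and 29.1% in B.

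On the right, forks from 745512 and 794013 met at 46.3% and 46.4% in galactose E and G, against 55.7% in glucose F, 58.7% in wild type A and 55.3% in B (exact permutation p = 0.1), also without overlap. From 623200 to 659856 they met at 40.5% and 32.2% in galactose E and G, against 35.1% in glucose F, 16.2% in wild type A and 24.6% in B. From 823889 to 888678 it was 47.9% and 47.5% in galactose E and G, against 47.3% in glucose F, 42.8% in wild type A and 33.6% in B. From 888678 to 927964 they lay near the middle in every sample, with 48.0% and 50.4% in galactose E and G, against 49.6% in glucose F, 52.0% in wild type A and 54.7% in B. From 947916 to 1007058 they were at 45.2% and 44.0% in galactose E and G, against 44.8% in glucose F, 39.5% in wild type A and 41.5% in B.

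Time in the deposited tables has a separate zero on each side of the gap. In each sample exactly 17 positions have a mean time of 0, with 1 on each of the other 15 chromosomes and 2 on chromosome XII. On the left the zero is at 373415 in galactose E and 412933 in galactose G, against 373916 in glucose F, 459954 in wild type A and 156819 in B. On the right it is at 794102 and 1007200 in galactose E and G, against 603017 in glucose F, 513478 in wild type A and 794102 in B. A time thus counts minutes after the earliest position of the same side in the same sample, the sides cannot be set against each other, and in wild type A both zeros are at the edges of the gap. Its left zero lies 10.5 kb beyond the last position shared by all samples. Mean time largely repeats fork direction, because the authors' forks all move at 2900 bp per minute. In 95.0% to 97.8% of the 500 bp steps the change in mean time was within 0.02 min of the value that the rightward share gives at this speed, where a step takes 0.172 min. Over all steps, Pearson's r between the change in mean time and that value was 0.946 to 0.995 in galactose E, galactose G, glucose F and wild type B, but 0.778 on the left and 0.701 on the right in wild type A.

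**Figure D4:**
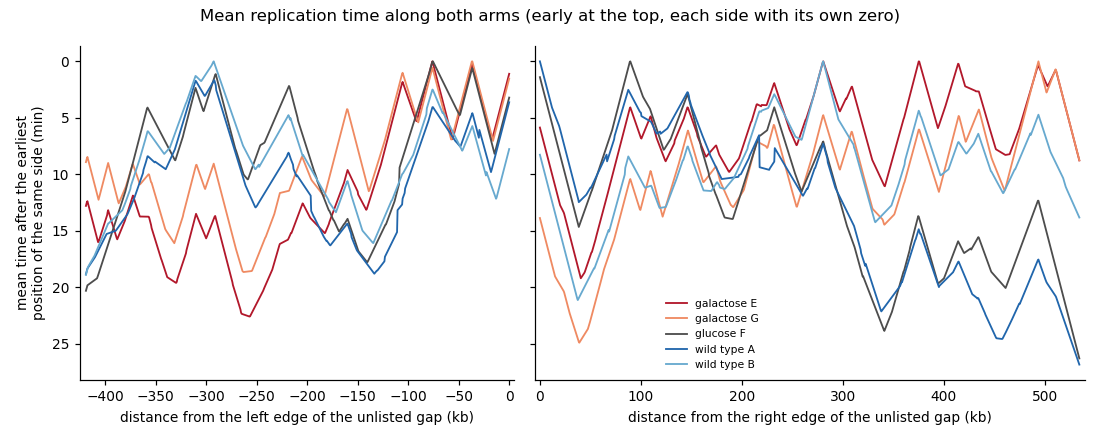
Mean time in minutes after the earliest position of the same side against distance from the gap edge in kb, early at the top, 1 line per sample. On the left, galactose E and G are latest between 200 and 300 kb from the gap, and on the right glucose F and wild type A are latest beyond 300 kb while wild type B lies with galactose.

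With these zeros, the left stretch averaged 11.9 and 9.20 min in galactose E and G, against 8.19 min in glucose F, 10.3 in wild type A and 8.71 min in B (exact permutation p = 0.4). The right stretch averaged 6.31 and 10.3 min in galactose E and G, against 12.4 min in glucose F, 13.1 in wild type A and 9.59 min in B (exact permutation p = 0.3). In the limma fit of window times, 0 windows of chromosome XII were called in any contrast. At an unadjusted p under 0.05, 34 left and 7 right windows passed between galactose and glucose, 35 and 3 between galactose and wild type, and 0 between glucose and wild type. As shares of the 190 windows these were 21.6%, 20% and 0%, beside 26.4%, 30.0% and 15.3% over the genome at the same threshold. After adjustment, over the genome 7.63% of windows were called earlier in galactose than in glucose, 7.8% earlier than in wild type, and 3.77% later in glucose than in wild type, and these too compare times with zeros of their own.

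Differences between places on the same side do not depend on the zero, and those given here were chosen after their values were seen. On the left, positions 200 to 300 kb from the gap were later than those within 100 kb of it by 14.2 and 9.85 min in galactose E and G, against 2.10 min in glucose F, 2.09 in wild type A and -1.31 min in B. The positions 200 to 300 kb from the gap, which include the missing site at 231184, were thus later relative to those near the gap in galactose than in the other 3 samples. On the right, positions over 400 kb from the gap differed from those 100 to 300 kb from it by -1.67 and -3.84 min in galactose E and G, against 9.52 min in glucose F, 13.2 in wild type A and 1.18 min in B. The wild-type replicates differed here by more than wild type B differed from galactose. Over the 106 right windows r of mean time was -0.0354 between wild type A and B, 0.936 between glucose F and wild type A, and 0.893 and 0.798 between wild type B and galactose E and G. On the left, r was 0.977 between galactose E and G, 0.921 between wild type A and B, and -0.0290 to 0.240 between a galactose sample and the other 3.

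When each sample's times were set relative to the median of the same side, a choice made after the zeros were seen, 1 left window was called between galactose and glucose and 9 between galactose and wild type, and 0 on the right. Over the genome 3.27% were then called later and 0.461% earlier in galactose than in glucose, 3.56% later and 4.32% earlier than in wild type, and 4.48% earlier in glucose than in wild type. The window from 30001 to 35000 stood at -0.848 and -1.02 min from the median of the left side in galactose E and G, against 12.7 min in glucose F, 8.69 in wild type A and 9.84 min in B (limma adjusted p = 0.0455 against glucose and 0.0414 against wild type). The 6 windows from 320001 to 350000 stood at -8.50 and -5.59 min in galactose E and G, against 4.70 min in glucose F, 5.34 in wild type A and 3.43 min in B (highest adjusted p 0.0450 against wild type). The 2 windows from 175001 to 185000 stood at 7.38 and 7.04 min in galactose E and G, against 1.07 min in glucose F, -1.02 in wild type A and -2.45 min in B (adjusted p = 0.0484 against wild type in one window and only just under 0.05 in the other). Galactose was thus early, relative to its own left side, around the sites at 31789 and 343719, and late between the sites at 157560 and 222220.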

How the data were processed

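Per the labels, Okazaki fragments of asynchronous yeast cultures were sequenced, and the authors deposited 3 tables of a fitted fork model for each of the 5 samples. Fork segments carry a probability, deposited as a fraction from 0 to 1, and start and end times in minutes on another, fitted scale; mean times per 500 bp were deposited with the summed fraction. No aligner, build or fitting program is named in the sources used here. Without read counts, depth is unknown and counting intervals cannot be given.

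From the segments, a site was found where the probability of forks leaving a breakpoint exceeded that of forks arriving in both directions by at least 0.1. Sites within 2500 bp were joined, and 5 kb windows needed at least 50% of their positions. Sites and windows of the whole genome were fitted by limma (version 3.58.1, R 4.3.3; lmFit, eBayes; 3 groups, 2 residual degrees of freedom, two-sided, Benjamini-Hochberg at 0.05), and the script was tested on simulated data. The glucose group, with 1 sample, borrows its spread from the others. Values per sample used exact two-sided permutation tests. Named were sites past the threshold, the 3 nearest the gap and the 3 strongest in wild type on each side, called window runs, and intervals between sites found in all samples. The site rule, members and lists were chosen with earlier results of these data known. Python 3.11.15, numpy 2.4.6, pandas 2.3.3 and matplotlib 3.10.9 did the rest.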

Additional observations from a re-analysis of the deposited data

How the results depend on the processing

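No paired analysis was possible because the labels give no replicate numbers. In the contrast with glucose, the fit with only the 2 groups equals the fits without wild type A or without wild type B. On the arcsine scale (of the square root), 10 sites of chromosome XII were called against wild type instead of 15, with 2 instead of 6 on the right. Against glucose 10 were called on that scale instead of 11, with 2 instead of 3 on the right. Joining within 1000 bp gave 15 instead of 11 against glucose, with 6 instead of 3 on the right. Against glucose, 6 sites of chromosome XII instead of 11 were called with only the 2 groups of the contrast, and 6 to 10 with 1 replicate left out; against wild type 7 to 10 instead of 15. Between glucose and wild type the count of 1 became 5 with joining within 1000 bp, 0 within 5000 bp, 2 on the arcsine scale and 1 to 6 with a replicate left out. Called direction windows numbered 45 in 2 kb and 11 in 10 kb windows against glucose (17 in 5 kb), 95 and 22 against wild type (39 in 5 kb), and 0 to 12 and 0 to 30 with a replicate left out, each such fit having 1 residual degree of freedom. Called time windows numbered 1 and 9 relative to the median of each side. For galactose minus the other 3, the left summed probability moved to 3.53 from 4.20 with 50 kb left out at each end. The left share toward the array was -0.164, and -0.0350 over 100 kb, -0.00896 over the whole stretch and -0.0593 of the listed probability. The right share, -0.0462, changed sign to 0.00156, 0.0415 and 0.0195 under these. Mean time, 1.46 min left and -3.37 min right, became 5.20 and 0.370 min minus the genome median, a median over separate zeros. Terminations were 3 to 4 higher on the left with a replicate left out, and 2 higher on the right, instead of 3.17, counted from segments that end together. By that count wild type B, with 25, lay above both galactose samples on the right. Of 75 alternatives with all replicates, 55 kept the count within 1.5 times or the value within the replicate spread. Many of these were counts of 0 calls that stayed at 0. Against wild type, the fit with only the 2 groups of the contrast had to return the same 15 sites and 39 windows, because 1 glucose sample adds no spread. The tally is thus no measure of stability. Causes were not tested.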
